A study of Mus musculus with 6 samples.

Results

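The 48 genes described here encode proteins of mitosis, the spindle and the kinetochore. They were chosen by gene name for their known roles in cell division, not by a cutoff on their values, and all 48 were found among the 27458 genes of the deposited table. RNA had been sequenced from primary mouse bone marrow macrophages treated with macrophage colony-stimulating factor (M-CSF). Libraries labelled WT (3) came from RKIP+/+ mice and libraries labelled KO (3) from RKIP-/- mice, and both groups had the same M-CSF treatment. RKIP, the Raf kinase inhibitor protein encoded by Pebp1, binds Raf kinases in the cytosol, and the study asked what it does in macrophage differentiation. How the allele was made, and the age, sex and pooling of the mice, are not given in the sources used here. No label ties the libraries of a group to different animals or cultures, so the p-values rest on a spread between libraries that may be technical.

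Mitosis is driven by cyclin B bound to the kinase Cdk1, with the Polo and Aurora kinases acting beside it. Chromosomes condense, their centromeres carry kinetochores that bind spindle microtubules, and a checkpoint holds back the anaphase-promoting complex (APC/C) until every kinetochore is attached. The APC/C then marks cyclin B and securin for destruction, sister chromatids part, and the midzone of the spindle directs cytokinesis. Transcripts of most of these genes are made late in the cell cycle, so in a culture their level depends in part on the share of dividing cells. M-CSF is the growth factor that keeps bone marrow macrophages alive and dividing.

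Values are FPKM, fragments scaled by transcript length and library total, so levels can be set side by side between genes. Fold changes are KO over WT from the quasi-likelihood test of edgeR on the deposited estimated counts, and a gene counts as lower or higher where its Benjamini-Hochberg adjusted p over all 11636 genes tested was under 0.05. FPKM and the scaled counts of the fit differ, so a fold change need not equal the ratio of the FPKM means beside it. Kif20b, for one, had a fitted log2 fold change of -0.06 with means of 2.18 FPKM in WT and 2.19 in KO. The ± beside a log2 fold change is an approximate standard error. Pebp1 stood at 39.2, 33.2 and 39 FPKM in WT, and its count was 0 in all 3 KO libraries (edgeR, adjusted p = 1.48e-10), as labelled. Total estimated counts were 53188659 to 55255365 in WT and 63607276 to 70059042 in KO, so each KO library was deeper than each WT library, and the part of depth in the results was not tested. Among the estimated counts the value 4 occurred 5769 times, against 3204 for the value 3 and 2041 for 5. From this, about 4 counts were taken to stand for 1 sequenced fragment, which was not measured.

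Most of the mitosis genes were lower in KO. Of the 47 genes that reached a mean of 1 FPKM, 32 were lower, 1 (Smc4) was higher and 14 did not pass the threshold, where 19.4% of all genes tested were lower and 20.3% were higher. The fitted log2 fold change was below 0 for 46 of the 47, with a median of -0.36, against -0.01 over all genes tested. Falls were moderate, from 1.16-fold to 1.57-fold with a median of 1.33-fold among the 32. The 3 KO libraries lay below the 3 WT libraries for 30 of the 47 genes and above them for 1 gene, where the groups' FPKM did not overlap for 19.1% of all genes in the lower direction and 32.4% in the higher. The 48th gene, Cdc25c, a phosphatase that activates Cdk1, was under the filter on low values, at 0.747, 0.966 and 0.717 FPKM in WT and 0.486, 0.624 and 0.728 in KO, and its groups overlapped.

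These were genes of modest level, with means of 1.08 to 20.8 FPKM and a median of 4.01 FPKM among the 47. The lowest estimated count of any of the 48 genes in a library was 165. Between replicate libraries the median coefficient of variation of the 47 genes was 7.57% in WT and 8.98% in KO.

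**Figure D1:**
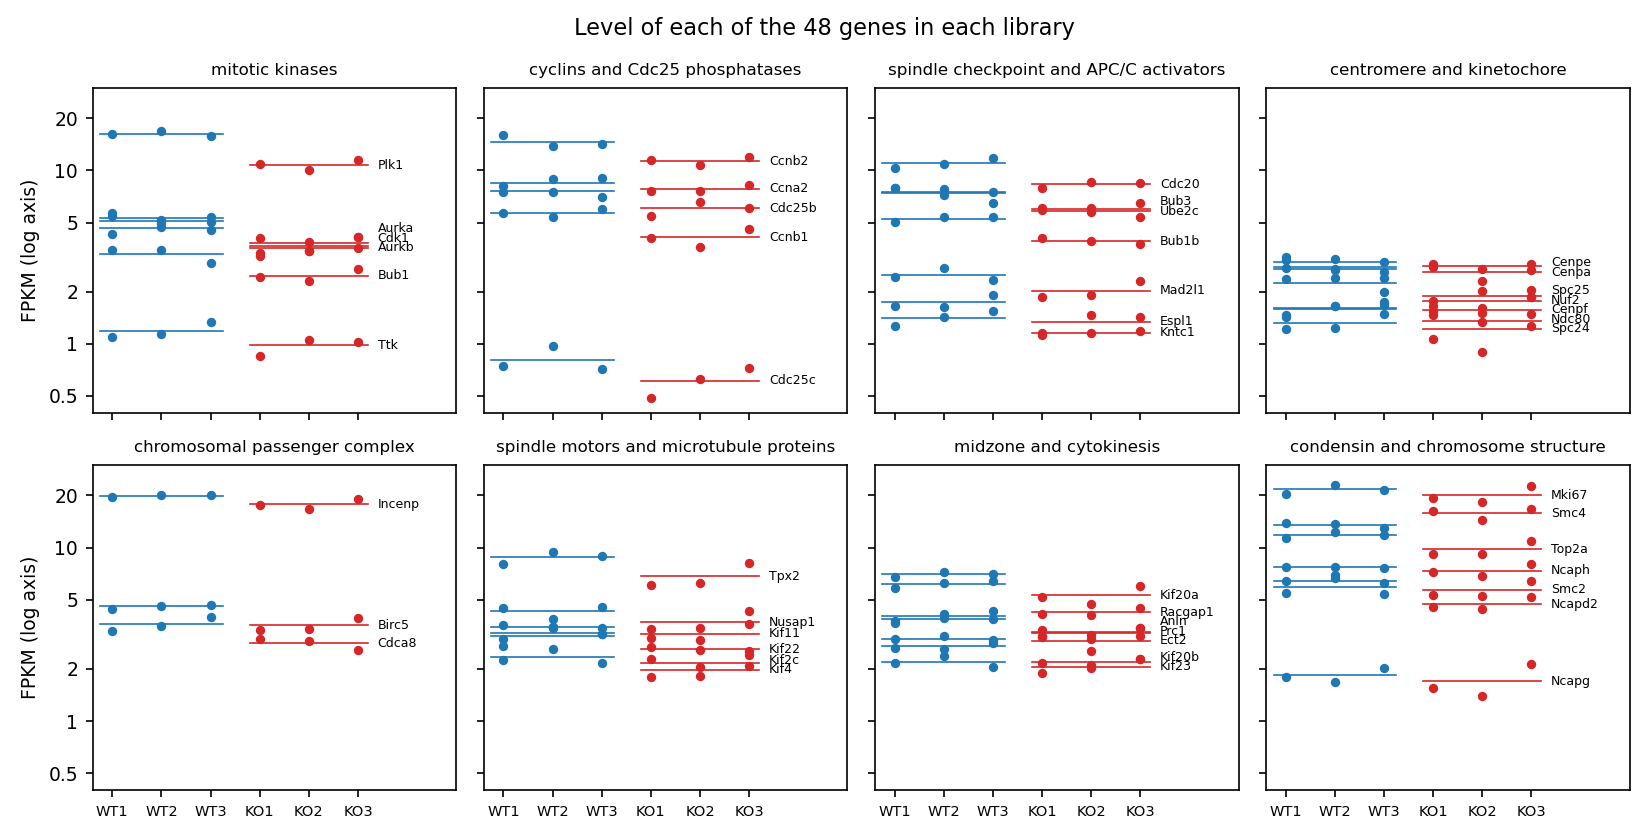
FPKM (log axis) of each of the 48 genes in the 3 WT (blue) and 3 KO (red) libraries, by role; points are libraries and horizontal lines are group means. Mki67 and Incenp were the most abundant and Cdc25c the least, and in most panels the red lines lie below the blue ones.

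The libraries within a group did not sit at the same height. The geometric mean of the 47 genes was 4.36, 4.52 and 4.46 FPKM in WT and 3.56, 3.49 and 3.93 FPKM in KO. KO3 was thus nearest to WT, and it was the highest KO library for 31 of the 47 genes (66.0%, against 37.0% of all genes). KO2 was the lowest KO library for 28 of them (59.6%, against 38.7% of all genes). In bulk RNA, fewer dividing cells and less of these transcripts per cell cannot be told apart.

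**Figure D2:**
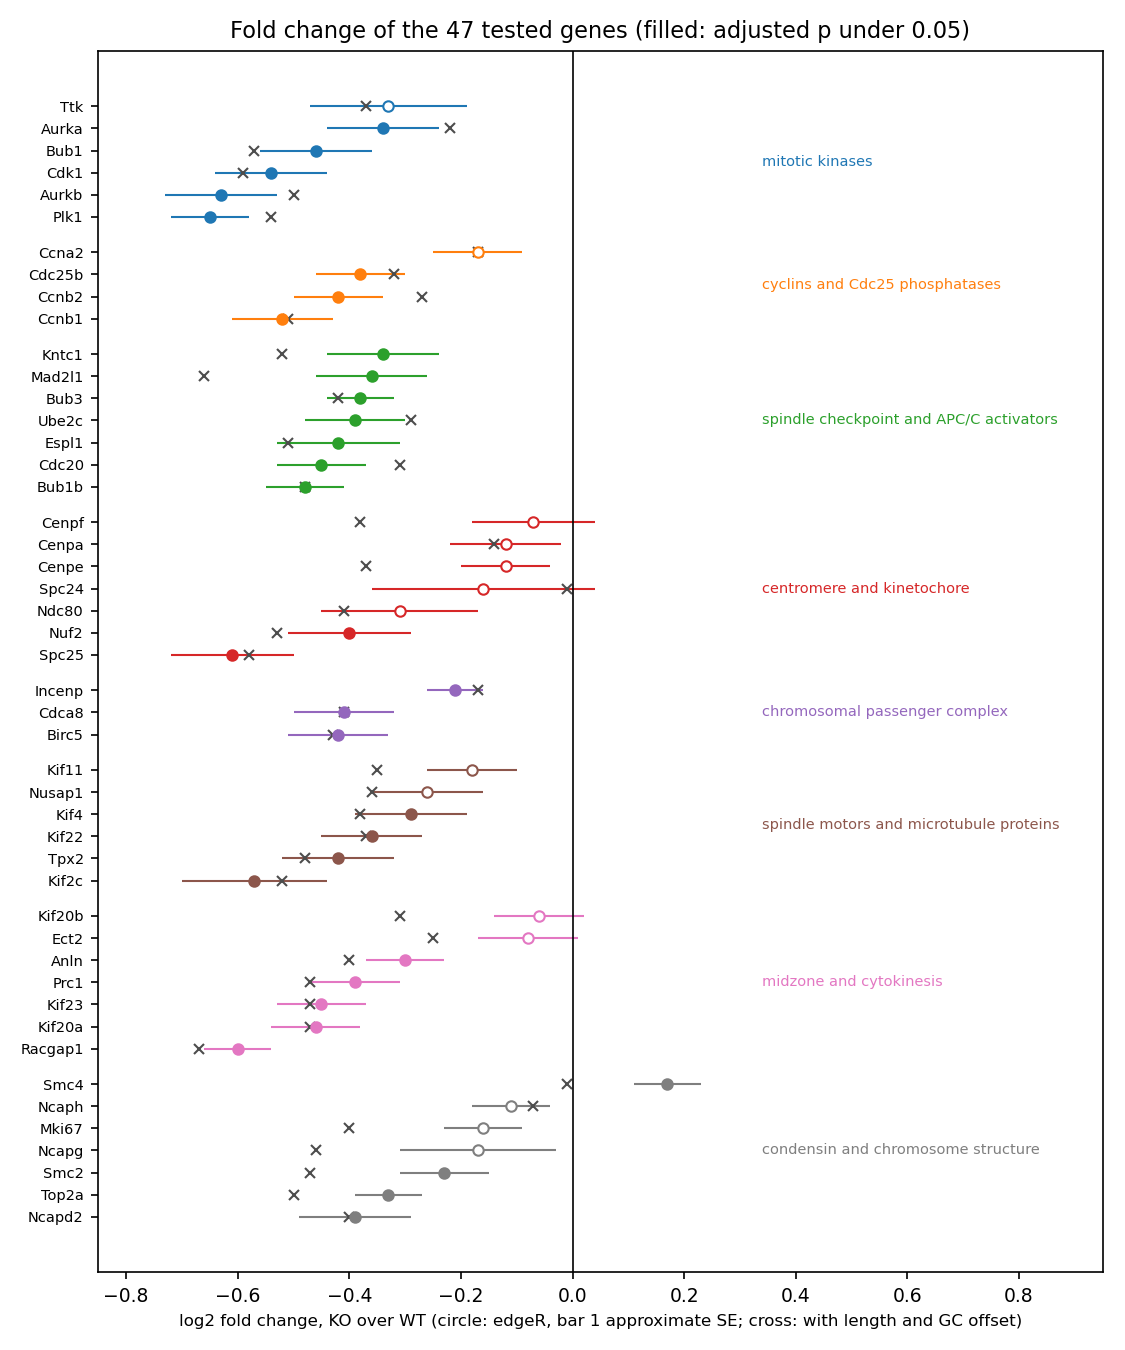
Log2 fold change (KO over WT) of the 47 tested genes by role, as circles with a bar of 1 approximate standard error on each side, filled where the adjusted p was under 0.05; crosses give the fit with the length and GC offset. All circles but that of Smc4 lie left of 0, and most kinetochore genes are open circles.

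Promoters of late cell cycle genes are known to carry a pair of short elements, the CCAAT box bound by the factor NF-Y and the cell cycle homology region (CHR) bound by the DREAM complex, which represses these genes in resting cells. Among the tested genes with both elements in the 250 bases before the start, Plk1, Bub3, Cdc20, Ccnb1 and Top2a had the smallest p (edgeR). The windows of Plk1, Cdc20 and Top2a are shown. Each is the 250 bases before the RefSeq transcription start (GRCm38.p6), 5′ to 3′ on the strand of the gene, with capitals marking the NF-Y box (CCAAT) and the CHR (TTTGAA or TTTAAA) on either strand. Plk1 is at chr7:122159185-122159434 on the plus strand, Cdc20 at chr4:118437344-118437593 on the minus strand and Top2a at chr11:99024190-99024439 on the minus strand.
Plk1: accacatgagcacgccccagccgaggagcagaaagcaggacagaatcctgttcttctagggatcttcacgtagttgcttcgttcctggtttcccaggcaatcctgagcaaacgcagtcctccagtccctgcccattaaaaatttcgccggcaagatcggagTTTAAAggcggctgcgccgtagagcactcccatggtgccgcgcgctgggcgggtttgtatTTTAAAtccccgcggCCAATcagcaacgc
Cdc20: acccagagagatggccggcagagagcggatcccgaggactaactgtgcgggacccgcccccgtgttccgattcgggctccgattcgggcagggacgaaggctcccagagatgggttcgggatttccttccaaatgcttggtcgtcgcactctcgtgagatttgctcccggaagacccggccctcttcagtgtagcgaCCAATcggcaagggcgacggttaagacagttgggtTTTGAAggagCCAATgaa
Top2a: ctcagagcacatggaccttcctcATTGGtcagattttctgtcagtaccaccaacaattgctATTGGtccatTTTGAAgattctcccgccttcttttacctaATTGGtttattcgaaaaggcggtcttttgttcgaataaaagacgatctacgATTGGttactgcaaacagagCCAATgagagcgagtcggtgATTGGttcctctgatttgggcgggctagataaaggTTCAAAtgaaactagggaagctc
In Cdc20 the CHR began 18 bases before the start (position -18) and lay between NF-Y boxes at -53 and -8. Top2a held 6 NF-Y boxes, from -227 to -58, with CHR matches at -179 and -23. Plk1 had CHR matches at -89 and -29 and an NF-Y box at -14. Ccnb1 (CHR at -42, NF-Y boxes at -99 and -67) and Bub3 (CHR at -43, NF-Y boxes at -74 and -32) also carried the pair. Their windows are not printed because they reach further into the gene as the deposited table lists it than that of Cdc20, which does so by its last few bases.

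A RefSeq window of 250 bases before to 50 after the start was given for 39 of the 48 genes. The genes without a window were Aurkb, Ccna2, Cdc25c, Spc24, Incenp, Kif4, Tpx2, Kif20a and Smc4. A CHR (TTTGAA or TTTAAA, either strand) was in 33 of the 39 windows (84.6%), against 21.0% of the 13630 windows of all genes in the table. An NF-Y box (CCAAT, either strand) was in 30 (76.9%, against 38.1%), and both were in 28 (71.8%, against 8.40%). In the 250 bases before the start alone, both were in 19 of the 39 (48.7%, against 7.17%). The CHR matches lay near the start: 29 genes had a match that began within 50 bases of it on either side, against 5.30% of all genes. Where both were present, the distance was taken from the CHR match furthest downstream in the window, so another match may lie closer to a box. The median distance from that match to the nearest NF-Y box was 32.5 bases, and in 16 of the 28 genes it was 20 to 60 bases. Among the CHR matches, 2 shared a base with an NF-Y box. An E2F site (TTTCCCGC or TTTGGCGC, either strand) was in 2 windows (5.13%, against 2.56%). Of the genes with a CHR 23 of 33 were lower (69.7%), and of those without one 4 of 6 (66.7%). Among all 8255 tested genes with a window 17.7% were lower. The difference between genes with and without a CHR was not tested. A match is a run of letters and was not tested as a binding site.

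**Figure D3:**
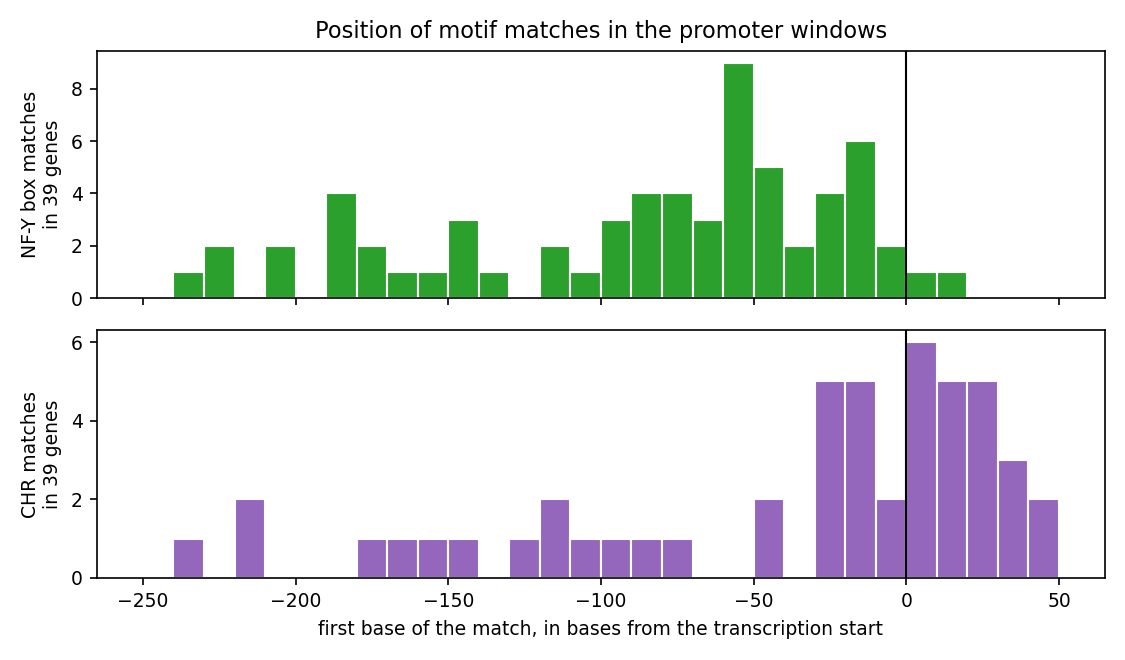
Number of NF-Y box matches (top) and CHR matches (bottom) in the 39 promoter windows by the position of their first base, in bases from the transcription start (vertical line), in bins of 10 bases. CHR matches gather within 50 bases of the start, and NF-Y boxes lie mostly before it.

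Mitotic kinases fell. Of the 6 kinases, 5 were lower and Ttk was not past the threshold, with -0.50 as the median log2 fold change. The counts by role, here and below, stand against 19.4% lower and 20.3% higher among all genes tested. Plk1, the Polo kinase that acts from mitotic entry to cytokinesis, stood at 16.1, 16.9 and 15.7 FPKM in WT and 10.8, 10.1 and 11.4 in KO. It was the most abundant kinase of the group, and every KO library was below every WT library. Its log2 fold change of -0.65 ± 0.07 (1.57-fold, edgeR, adjusted p = 2.87e-05) was the largest fall among the 47 genes in this fit and was past the threshold in every alternative tried. With the length and GC offset it was -0.54, behind Racgap1 (-0.67), Mad2l1 (-0.66), Cdk1 (-0.59), Spc25 (-0.58) and Bub1 (-0.57). Aurkb, the kinase of the chromosomal passenger complex, stood at 5.42, 5.17 and 5.39 FPKM in WT and 3.20, 3.43 and 4.11 in KO, again without overlap. Its log2 fold change was -0.63 ± 0.10 (1.54-fold, edgeR, adjusted p = 0.000481). Cdk1, the kinase that cyclin B activates, fell 1.45-fold, and Bub1, a checkpoint kinase at kinetochores, fell 1.37-fold. Aurka, the centrosomal Aurora kinase, fell 1.26-fold (edgeR, adjusted p = 0.0220) but not with the correction for length and GC content given below (log2 fold change -0.22, adjusted p = 0.131), nor without WT2 (adjusted p = 0.0516), WT3 (0.0854) or KO3 (0.0742). Ttk, the checkpoint kinase Mps1, was 1.18 ± 0.127 FPKM in WT and 0.976 ± 0.106 in KO (SD, n = 3 libraries each), with a log2 fold change of -0.33 ± 0.14.

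B-type cyclins fell while the A-type cyclin did not pass the threshold. In the group of cyclins and Cdc25 phosphatases 3 of 4 tested genes were lower (median log2 fold change -0.40). Ccnb1, the cyclin that carries Cdk1 into the nucleus at mitotic entry, stood at 5.69, 5.35 and 5.96 FPKM in WT and 4.08, 3.62 and 4.61 in KO. Ccnb2, the cyclin B form of the Golgi, was the more abundant, at 15.9, 13.8 and 14.2 FPKM in WT and 11.4, 10.7 and 12.0 in KO. The groups did not overlap for either cyclin. Ccnb1 fell 1.43-fold (log2 fold change -0.52 ± 0.09, edgeR, adjusted p = 0.000966) and Ccnb2 fell 1.34-fold (-0.42 ± 0.08, edgeR, adjusted p = 0.00155). Ccnb1 has matching pseudogenes in the table, of which Ccnb1-ps had the highest mean at 0.633 FPKM in WT, so some of the reads of Ccnb1 are uncertain. Cdc25b, the phosphatase that first activates Cdk1, fell 1.3-fold from 7.55 ± 0.563 to 6.03 ± 0.541 FPKM. Ccna2, the cyclin of S phase and early mitosis, was 8.46 ± 0.843 FPKM in WT and 7.80 ± 0.330 in KO, and its groups overlapped (edgeR, adjusted p = 0.0988). Without WT1, its lowest WT library, Ccna2 passed (log2 fold change -0.25, adjusted p = 0.0133).

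All 7 genes grouped here as spindle checkpoint and APC/C activators were lower (median log2 fold change -0.39), and none had overlapping groups. Over all genes tested, 19.1% lay lower in KO without overlap. Ttk, the checkpoint kinase counted with the mitotic kinases, was not past the threshold, and other APC/C genes are given below. Bub1b encodes BubR1, which binds and inhibits Cdc20, and stood at 5.02, 5.41 and 5.38 FPKM in WT and 4.09, 3.90 and 3.74 in KO. Bub3, its partner that docks on phosphorylated kinetochores, stood at 7.88, 7.20 and 7.52 FPKM in WT and 5.87, 5.74 and 6.45 in KO. Cdc20, the APC/C activator that the checkpoint restrains, was the most abundant of the group, at 10.3, 10.9 and 11.7 FPKM in WT and 7.90, 8.58 and 8.46 in KO. The falls were alike in size: 1.40-fold for Bub1b (log2 fold change -0.48 ± 0.07, edgeR, adjusted p = 0.000367), 1.3-fold for Bub3 (-0.38 ± 0.06, adjusted p = 0.000420) and 1.37-fold for Cdc20 (-0.45 ± 0.08, adjusted p = 0.000751). Bub3 lies within Fgfr2, which runs on the opposite strand (mean 2.20 FPKM in WT, 3.12 in KO); whether counting used the strand is not given in the sources used here. The other 4 were Ube2c, the ubiquitin-conjugating enzyme of the APC/C (1.31-fold), Espl1, separase, which cuts cohesin (1.34-fold), Mad2l1, the checkpoint protein Mad2 (1.28-fold), and Kntc1, a subunit of the Rod-Zw10-Zwilch complex (1.26-fold). Kntc1 lies on chromosome 5 at 6.46 Mb from Pebp1. Espl1, Mad2l1 and Kntc1 were not past the threshold with limma on log2(FPKM + 1), +0.5 or +0.1, or with no filter on low values. Mad2l1 was also not past it without WT2 (edgeR, adjusted p = 0.0552), nor Kntc1 without WT3 (adjusted p = 0.0906).

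Most kinetochore genes did not pass the threshold. Of 7 genes of the centromere and kinetochore 2 were lower (28.6%, against 19.4% of all genes) and 5 were not past the threshold (median log2 fold change -0.16). Spc25, a subunit of the 4-part NDC80 complex that holds the microtubule, stood at 2.72, 2.67 and 2.95 FPKM in WT and 1.76, 2.02 and 1.87 in KO, with no overlap. It fell 1.53-fold (log2 fold change -0.61 ± 0.11, edgeR, adjusted p = 0.00121). Nuf2, the second of that complex to fall, was 2.37, 2.38 and 2.00 FPKM in WT and 1.65, 1.61 and 2.03 in KO, and the highest KO library overlapped the lowest WT library. Its log2 fold change was -0.40 ± 0.11 (1.32-fold, edgeR, adjusted p = 0.0120), and it was not past the threshold with limma (adjusted p = 0.0595, 0.0600 and 0.0609 at pseudocounts of 1, 0.5 and 0.1). The remaining subunits, Ndc80 (-0.31 ± 0.14) and Spc24 (-0.16 ± 0.20), were not past it, and the differences between the 4 subunits were not tested. Ndc80, at 1.61 FPKM in WT and 1.35 in KO, has a matching pseudogene in the table, 2700099C18Rik (0.53 and 0.56 FPKM). Some of the reads of Ndc80 are therefore uncertain. Cenpe, the kinesin that moves chromosomes to the spindle equator, was the most abundant of the group, at 3.17, 3.08 and 2.58 FPKM in WT and 2.90, 2.68 and 2.87 in KO. Its groups overlapped (log2 fold change -0.12 ± 0.08, edgeR, adjusted p = 0.30). Cenpa, the histone H3 variant of centromeres, was 2.70 ± 0.320 FPKM in WT and 2.58 ± 0.237 in KO, and Cenpf, a large kinetochore protein, 1.59 ± 0.112 and 1.57 ± 0.263.

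All 3 genes of the chromosomal passenger complex besides Aurkb were lower, without overlap of the groups. This complex corrects faulty attachments and later acts in cytokinesis. Incenp, its scaffold, was the most abundant of the 48 genes after Mki67, at 19.6, 20 and 20.2 FPKM, and stood at 17.7, 16.7 and 19.1 in KO. Birc5, survivin, stood at 4.45, 4.63 and 4.69 FPKM in WT and 3.33, 3.41 and 3.94 in KO. Cdca8, borealin, stood at 3.31, 3.54 and 3.97 FPKM in WT and 2.97, 2.91 and 2.57 in KO. Birc5 fell 1.34-fold (log2 fold change -0.42 ± 0.09, edgeR, adjusted p = 0.00269) and Cdca8 1.33-fold (-0.41 ± 0.09, adjusted p = 0.00474). Incenp fell by less, 1.16-fold (-0.21 ± 0.05, adjusted p = 0.00590), the smallest fold among the 32 genes.

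Among spindle motors and microtubule proteins 4 of 6 were lower (median log2 fold change -0.33). Kif2c, the kinesin that takes microtubule ends apart at centromeres, stood at 2.70, 3.44 and 3.17 FPKM in WT and 2.28, 1.82 and 2.39 in KO. Kif22, a kinesin that pushes chromosome arms outward, stood at 2.97, 3.49 and 3.19 FPKM in WT and 2.69, 2.56 and 2.54 in KO. Neither gene's groups overlapped, and Kif2c fell 1.49-fold (log2 fold change -0.57 ± 0.13, edgeR, adjusted p = 0.00387) and Kif22 1.29-fold (-0.36 ± 0.09, adjusted p = 0.00601). Tpx2, the activator of Aurora A on the spindle, was the most abundant, at 8.07, 9.40 and 8.95 FPKM in WT and 6.09, 6.26 and 8.17 in KO. KO3 lay above WT1 for Tpx2, and the fall was 1.34-fold (-0.42 ± 0.10, adjusted p = 0.00640). Kif4, a chromosome-bound kinesin, fell 1.23-fold (edgeR, adjusted p = 0.0332), but not past the threshold without WT2 (adjusted p = 0.141) or KO1 (adjusted p = 0.119). With limma at each pseudocount, or with no filter on low values, Kif4 was not past it either. Kif4 overlaps Pdzd11 on the opposite strand, at 9.45 FPKM in WT and 8.04 in KO. Kif11, the kinesin that separates spindle poles, was 3.49 ± 0.0699 FPKM in WT and 3.20 ± 0.393 in KO, and Nusap1, which bundles spindle fibres, 4.30 ± 0.381 and 3.72 ± 0.506, both with overlapping groups. Without KO3 both passed the threshold (edgeR, adjusted p = 0.0133 for Kif11 and 0.0152 for Nusap1), and without WT2 Nusap1 did (adjusted p = 0.0381).

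Genes of the spindle midzone and cytokinesis were lower in 5 of 7 cases (median log2 fold change -0.39). Racgap1, the GTPase-activating subunit of centralspindlin, stood at 5.85, 6.28 and 6.41 FPKM in WT and 4.17, 4.07 and 4.50 in KO. Kif23, the kinesin of the same complex, stood at 2.65, 2.60 and 2.92 FPKM in WT and 1.9, 2.02 and 2.27 in KO. Both were without overlap. Racgap1 fell 1.51-fold (log2 fold change -0.60 ± 0.06, edgeR, adjusted p = 3.2e-05) and Kif23 1.37-fold (-0.45 ± 0.08, adjusted p = 0.00123). Kif20a, the kinesin that carries the passenger complex to the midzone, was the most abundant, at 6.81, 7.28 and 7.01 FPKM in WT and 5.19, 4.76 and 6.01 in KO, and fell 1.37-fold (-0.46 ± 0.08, adjusted p = 0.00129). It overlaps Cdc23 on the opposite strand, at 3.54 FPKM in WT and 3.76 in KO. Prc1, which bundles midzone microtubules, fell 1.31-fold and Anln, anillin of the contractile ring, 1.23-fold. Ect2, the exchange factor that centralspindlin recruits, was 2.96 ± 0.141 FPKM in WT and 2.90 ± 0.325 in KO, and Kif20b, another midzone kinesin, 2.18 ± 0.157 and 2.19 ± 0.0803, neither past the threshold.

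Genes of chromosome structure were mixed. Of 7 genes 3 were lower (42.9%, against 19.4% of all genes) and 1 was higher (14.3%, against 20.3%). The other 3 were not past the threshold, and the median log2 fold change was -0.17. Top2a, the topoisomerase that untangles sister chromatids, stood at 11.4, 12.3 and 11.8 FPKM in WT and 9.25, 9.14 and 10.9 in KO, and fell 1.26-fold without overlap (log2 fold change -0.33 ± 0.06, edgeR, adjusted p = 0.00138). Ncapd2, a regulatory subunit of condensin I, stood at 5.46, 6.92 and 5.42 FPKM in WT and 4.53, 4.41 and 5.19 in KO, and fell 1.31-fold without overlap (-0.39 ± 0.10, adjusted p = 0.00777). Smc4, a core subunit of both condensins, went the other way, at 13.9, 13.7 and 13 FPKM in WT and 16.3, 14.4 and 16.8 in KO. The rise was 1.13-fold (0.17 ± 0.06, edgeR, adjusted p = 0.0399), and it was not past the threshold in 12 of 21 alternatives, among them the fits without WT1, WT2, WT3, KO1 or KO3 (adjusted p from 0.0510 to 0.150). Corrected for length and GC content, Smc4 stood at a log2 fold change of -0.01 (adjusted p = 0.882). Smc2, the partner of Smc4 in the condensin core, fell 1.17-fold (-0.23 ± 0.08, adjusted p = 0.0343) with overlapping groups, and was not past the threshold without WT1, WT2, WT3, KO1 or KO2 (adjusted p from 0.0517 to 0.112). With limma at each pseudocount, or with no filter on low values, Smc2 was not past it either. Mki67, which coats mitotic chromosomes and is the usual stain for dividing cells, was the most abundant gene of all 48, at 20.4, 23.0 and 21.5 FPKM in WT and 19.2, 18.3 and 22.6 in KO. Its groups overlapped through KO3, and its log2 fold change was -0.16 ± 0.07 (edgeR, adjusted p = 0.0917). Without KO3 it was -0.25 (adjusted p = 0.00989). The condensin I subunits Ncaph (-0.11 ± 0.07) and Ncapg (-0.17 ± 0.14) were not past the threshold either; without KO3 Ncapg was, at -0.36 (adjusted p = 0.0390).

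Fold changes followed transcript length in these libraries, over all genes as well as over the mitosis genes. Across the 47 genes Spearman's rho of log2 fold change and length was 0.41, and across 11627 genes with an annotated length it was 0.49; these are descriptions across genes, which are not independent replicates. Among the 16 shortest mitosis genes (1531 to 3358 bp) 12 were lower, where 21.7% of all genes of those lengths were. Of the 15 of middle length (3398 to 4316 bp) 9 were lower, against 12.6%, and of the 16 longest (4365 to 11130 bp) 11, against 6.72%. A fit that took each library's trend on length and GC content out as an offset called 40 of the 47 genes lower and 0 higher (median log2 fold change -0.41), where 16.3% of all genes were lower and 14.2% higher. In that fit 11, 13 and 16 of the short, middle and long genes were lower, and rho over the 47 genes was -0.21. Called in both fits were 31 genes, 9 more passed with the offset only, and Aurka passed only without it.

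**Figure D4:**
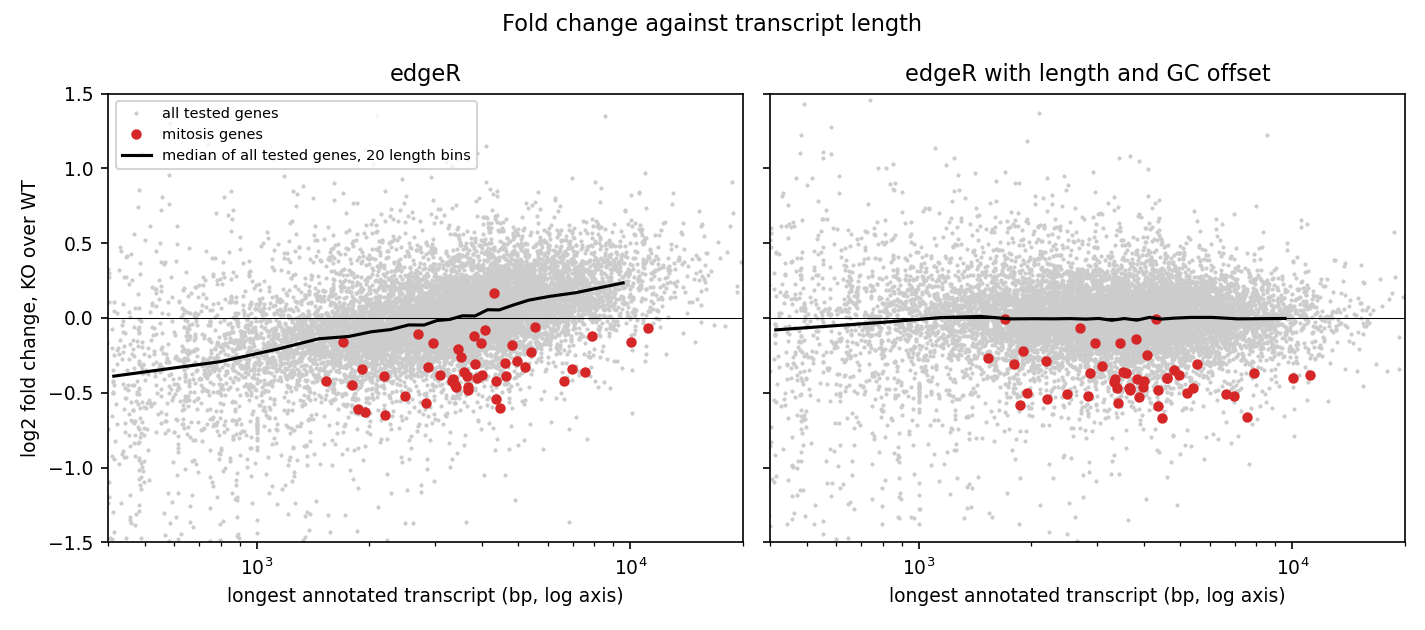
Log2 fold change (KO over WT) against the length of the longest annotated transcript (log axis) for all tested genes (grey) and the mitosis genes (red), without (left) and with (right) the length and GC offset; the black line is the median of all genes in 20 length bins. The line rises with length on the left and is flat on the right, and in both panels most red points lie below it.

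With the offset, 4 of the 8 roles had more genes past the threshold. The counts by role in that fit stand against 16.3% lower and 14.2% higher among all genes tested. Kinetochore genes went from 2 to 5 of 7 lower (median log2 fold change -0.38), and condensin and chromosome genes from 3 to 5 of 7. The long genes Mki67 (-0.40, adjusted p = 0.000212), Cenpe (-0.37, adjusted p = 0.00556) and Cenpf (-0.38, adjusted p = 0.00558) passed the threshold there. All 6 spindle motor genes and all 7 midzone genes were lower in that fit, against 4 and 5 without it. The checkpoint genes stayed at 7 of 7, the passenger complex at 3 of 3 and the cyclins and phosphatases at 3 of 4, and the mitotic kinases went from 5 to 4 of 6. Mad2l1 moved from -0.36 to -0.66 and Cenpf from -0.07 to -0.38, in a fit that uses the length of the longest annotated transcript, which need not be the one expressed. Still not past the threshold with the offset were Ttk, Ccna2, Cenpa, Spc24, Ncaph and Smc4, beside Aurka.

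Other genes of mitosis, 126 in 5 lists, were read beside the 48. Of 106 tested, 37 were lower and 10 higher (34.9% and 9.43%, against 19.4% and 20.3% of all genes; median log2 fold change -0.15). With the offset 37 were lower and 2 higher, where 16.3% and 14.2% of all genes were. The list of other spindle, centrosome and cytokinesis genes was lowest, with 17 of 31 lower and 2 higher (median -0.30). Iqgap3, a scaffold of the cell cortex, fell 1.45-fold from 1.97 ± 0.0702 to 1.40 ± 0.0375 FPKM (edgeR, adjusted p = 0.00011), and Tubg1, gamma-tubulin of spindle poles, 1.44-fold from 8.43 ± 0.233 to 6.07 ± 0.322 FPKM (adjusted p = 0.000212). Of mitotic entry regulators 7 of 17 were lower and 0 higher (median -0.21). Foxm1, a transcription factor that binds promoters of late cell cycle genes, fell 1.36-fold from 4.57 ± 0.180 to 3.49 ± 0.217 FPKM (adjusted p = 0.000532), and Pbk, a mitotic kinase, 1.64-fold (adjusted p = 0.00216).

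Most other structural genes of the kinetochore and the APC/C did not pass the threshold. Other kinetochore genes were lower in 6 of 25 cases (24.0%, against 19.4% of all genes) and higher in 1 (4.0%, against 20.3%). Their median was -0.17, and Pmf1, of the Mis12 complex, fell 1.3-fold. The 1 that rose was Zwint, a kinetochore protein that binds Knl1, at 11.1, 10.3 and 10.2 FPKM in WT and 13.1, 12.8 and 13.8 in KO. The groups of Zwint did not overlap, and its rise of 1.21-fold (log2 fold change 0.28, edgeR, adjusted p = 0.00139) was past the threshold in every alternative, with the offset at 0.25. Other APC/C genes were lower in 5 of 19 cases (26.3%, against 19.4%) and higher in 1 (5.26%, against 20.3%), with a median of -0.12. In both lists the share lower was not far from that of all genes. Ube2s, the enzyme that extends ubiquitin chains on APC/C targets, fell 1.33-fold (adjusted p = 0.000387), while the subunit Cdc27 rose 1.18-fold (adjusted p = 0.00235), and with the offset stood at 0.00 (adjusted p = 0.993).

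Cohesin and condensin II genes went the other way, with 2 of 14 lower and 6 higher (median 0.13). These were 14.3% and 42.9%, against 19.4% and 20.3% of all genes. Stag2, a cohesin subunit, was 13.3, 13 and 13.4 FPKM in WT and 17.8, 17.6 and 19.1 in KO, and Nipbl, the cohesin loader, 12.8, 12.8 and 12.7 FPKM in WT and 17.4, 16.6 and 18.2 in KO. These long genes rose 1.32-fold and 1.31-fold (edgeR, adjusted p = 4.05e-05 and 5.68e-05). With the offset the log2 fold changes fell from 0.41 to 0.10 for Stag2 (adjusted p = 0.0464) and from 0.39 to 0.10 for Nipbl (adjusted p = 0.0534). In that fit 1 gene of the list was lower and 1 higher, where 16.3% and 14.2% of all genes were.

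Most DNA replication genes were lower. Of 44 tested, 31 were lower (70.5%, against 19.4% of all genes) and 0 higher (against 20.3%). The median log2 fold change was -0.37, and with the offset 28 were lower, against 16.3% of all genes. Mcm5 and Mcm3, subunits of the replicative helicase, fell 1.49-fold (from 11.7 ± 0.773 to 8.16 ± 0.141 FPKM, edgeR, adjusted p = 3.1e-05) and 1.43-fold (from 14.4 ± 0.557 to 10.4 ± 0.608 FPKM, adjusted p = 3.77e-05).

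**Figure D5:**
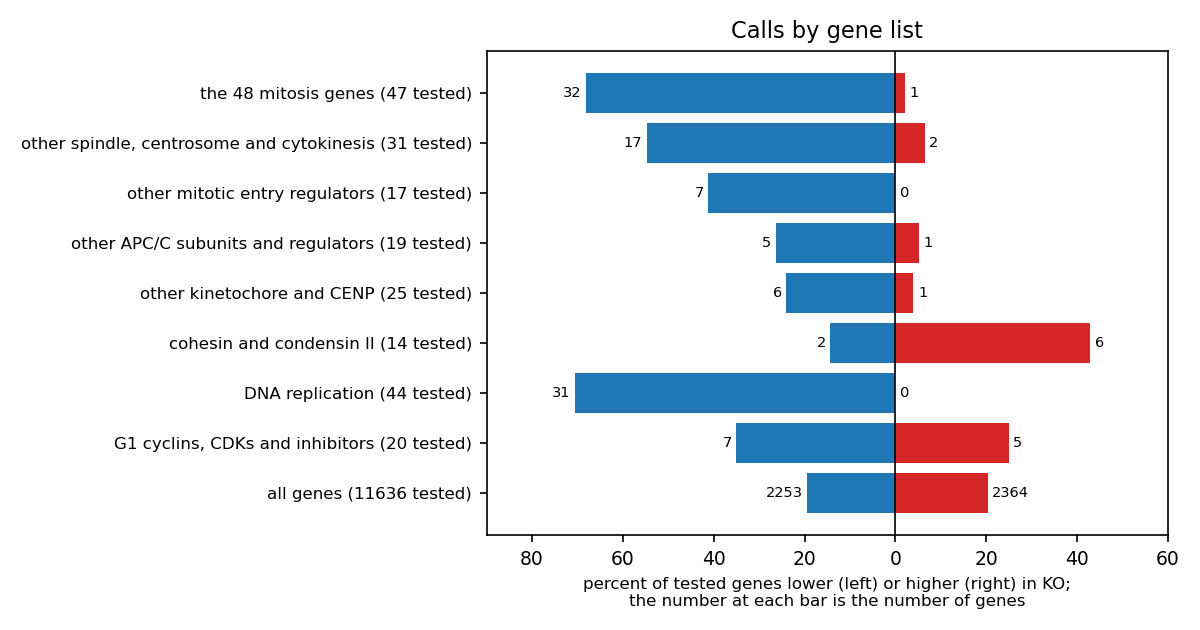
Percent of tested genes lower (blue, to the left) and higher (red, to the right) in KO for the mitosis genes, 5 lists of other mitosis genes, 2 neighbouring lists and all genes; numbers at the bars are genes. The mitosis genes (32 of 47) and DNA replication genes (31 of 44) have the longest blue bars, and cohesin and condensin II the longest red one.

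Markers of other cells of the marrow were read beside these results. Of 12 neutrophil markers 10 were tested, and 9 were lower and 0 higher (19.4% and 20.3% of all genes). The summed level of the 12 was 101, 184 and 190 FPKM in WT and 20.8, 21.9 and 20.5 FPKM in KO. The part of this difference in the mitosis result was not tested; WT1 had the lowest neutrophil sum of the WT libraries and a geometric mean of the mitosis genes of 4.36 FPKM, against 4.52 and 4.46. All 8 markers of granulocyte and myeloid progenitors, among them Mpo, Elane and Kit, were below 1 FPKM in every library, with sums of 0.727, 0.935 and 0.401 FPKM in WT and 0.525, 0.796 and 0.240 in KO. Stromal markers were high as a sum in both groups, with the collagen gene Col1a1 among them. Their sums were 948, 1050 and 1030 FPKM in WT and 978, 1090 and 1020 in KO. Of 6 stromal markers 5 were tested, with 1 lower (Pdgfrb) and 1 higher (Cxcl12) (19.4% and 20.3% of all genes). Cxcl12 rose 1.49-fold without overlap of the groups (edgeR, adjusted p = 2.57e-06). With the offset 3 were lower, Col1a1 among them (log2 fold change -0.19), and 1 was higher (16.3% and 14.2% of all genes in that fit). Which cells held the mitosis transcripts was not tested. Macrophage markers summed to 22400 to 23900 FPKM in WT and 20300 to 20700 FPKM in KO, with 7 of 12 lower and 3 higher (19.4% and 20.3% of all genes). With the offset 3 macrophage markers were lower and 3 higher (16.3% and 14.2% of all genes in that fit).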

How the data were processed

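RNA was sequenced by the authors from 6 libraries of M-CSF-treated mouse bone marrow macrophages, after oligo(dT) selection and with dUTP strand marking, per the labels' protocols. The submitters' processing notes name cutadapt 1.9, HISAT2 2.0.4 and StringTie 1.3.4d. The genome build and the use of strand in counting are not given in the sources used here. The deposited table holds FPKM and an estimated count per gene and library, per the file headers; these estimated counts were deposited as whole numbers. The unused columns of per-sample values number 0.

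The estimated counts were tested with edgeR 4.0.16 (R 4.3.3; TMM scaling, quasi-likelihood, two-sided, all 6 libraries, no covariate) for genes whose mean reached 1 FPKM, with Benjamini-Hochberg adjustment over all 11636 of them and a threshold of 0.05. The fit was tested on simulated counts. Standard errors were worked back from F (the size of the log2 fold change divided by the root of F). DESeq2 1.42.0, limma 3.58.1 on log2(FPKM + pseudocount), other scalings and filters, a length and GC offset (loess), the replicate number as a block and leaving out each library were alternatives. Gene IDs matched GENCODE M21 (GRCm38) for 27382 genes, and 45 of the 48 genes had identical coordinates. Length and GC content are of the longest transcript.

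The 48 genes and all lists were chosen with earlier results of these data known. Values in every library are given, in each role, for the 2 tested genes with the smallest p and the most abundant one, and for any gene past the threshold against the main direction; of other lists the 2 with the smallest p are named. Promoter windows are RefSeq's (GRCm38.p6), taking the one nearest to the listed 5′ end. Pseudogenes were matched with minimap2 2.31 where 50% or more of the pseudogene was covered: 11 of the 48 genes have one in the table, and 16 overlap a gene on the opposite strand, 7 of these partners at 1 FPKM or more in WT. Counting strand and mapping of shared reads could move such values. Tables and plots were made with Python 3.11.15, numpy 2.4.6, pandas 2.3.3 and matplotlib 3.10.9.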

Additional observations from a re-analysis of the deposited data

How the results depend on the processing

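In all 21 alternatives at least 24 of the mitosis genes were lower in KO. The number was 24 with no filter on low values, where 6.15% of all genes were lower. It was 40 with the length and GC offset, where 16.3% of all genes were. In edgeR as reported and in each alternative, 24 genes were lower. Leaving out 1 library at a time gave 29 to 35 genes lower, 0 to 1 higher and a median log2 fold change of -0.38 to -0.33, with 1794 to 2047 genes of the whole table lower and 1969 to 2272 higher. The 1 gene that rose, Smc4, was no longer past the threshold, leaving 0 higher, with upper-quartile scaling, library totals only, no filter, a mean of at least 0.1 FPKM, filterByExpr, the length and GC offset alone and with the replicate block, and without WT1, WT2, WT3, KO1 or KO3. Its log2 fold change was reversed to -0.01 with the offset (adjusted p = 0.882) and with the offset and replicate block (adjusted p = 0.859). The median of the tested genes moved to -0.23 and -0.27 with limma on log2(FPKM + 1) and log2(FPKM + 0.5), where a pseudocount shrinks the change of low genes. Of 483 comparisons of the 23 genes described by library, 459 kept direction and side of the threshold, 15 lost the threshold, 7 gained it and 2 reversed, and 18 of the 23 genes kept both in every alternative. Most of the 23 were picked by smallest p, which favours staying past the threshold. Over the whole table the split of lower against higher genes was 2253 to 2364 as reported, 2880 to 1913 with upper-quartile scaling and 1639 to 2770 with limma on log2(FPKM + 1). Deviations of same-numbered libraries were weakly correlated (0.023, 0.187 and -0.038). The labels do not say whether such libraries were handled together, and these values cannot decide it. With the replicate block 34 mitosis genes were lower and 1 higher (median -0.36, with 2294 and 2407 genes of the table). With the block and the offset 40 were lower and 0 higher (median -0.41, with 1912 and 1669 genes). Cdc25c, under the 1 FPKM filter, was not past the threshold in the 3 alternatives that tested it. Each fit without a library kept 2 libraries in that group.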

Other observations

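Genes of the G1 decision, upstream of the mitosis genes, were called in both directions. Of 20 tested, 7 were lower (35.0%, against 19.4% of all genes) and 5 higher (25%, against 20.3%, a share near that of all genes), with -0.14 as the median log2 fold change, and with the length and GC offset 8 were lower and 4 higher. Rb1, the retinoblastoma protein that holds E2F factors in check, stood at 9.49, 10.3 and 9.40 FPKM in WT and 15.9, 15.7 and 16.4 in KO. Rbl2, the p130 pocket protein that is part of the DREAM repressor, stood at 10.4, 10.5 and 10.7 FPKM in WT and 13.6, 14.0 and 14.6 in KO. Neither gene's groups overlapped, and the rises were 1.58-fold for Rb1 (edgeR, adjusted p = 1.93e-06) and 1.29-fold for Rbl2 (adjusted p = 4.15e-05). With the offset the log2 fold changes were 0.49 (adjusted p = 1.1e-05) and 0.27 (adjusted p = 9.55e-05). Both genes were past the threshold in all 21 alternatives.

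The following genes of this list were chosen after their values were seen. Ccne1, cyclin E1, fell 1.65-fold from 3.10 ± 0.189 to 1.96 ± 0.169 FPKM (edgeR, adjusted p = 0.000732), and Cdkn2a, which encodes p16 and p19Arf, fell 1.60-fold from 9.03 ± 0.155 to 5.86 ± 0.968 FPKM (adjusted p = 0.00120). Ccnd2, cyclin D2, rose 1.20-fold (adjusted p = 0.000852), while Ccnd1, cyclin D1, fell 1.17-fold with overlapping groups (adjusted p = 0.00890). Cdkn1b, the inhibitor p27, rose 1.22-fold (adjusted p = 0.00339) and was not past the threshold with the offset (adjusted p = 0.0552).

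The CHR and NF-Y pair was also read in promoters of genes outside the mitosis, replication and G1 lists. Of 560 such tested genes with both elements, 128 were lower (22.9%) and 107 higher (19.1%), with a median log2 fold change of -0.01. Of 7516 without the pair, 1246 were lower (16.6%) and 1660 higher (22.1%), with a median of 0.01. These shares are a description and were not tested.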
